A study of Mus musculus with 6 samples.

Results

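The integrated stress response (ISR) genes described here are 10 genes of a table of 22310 genes, chosen by name as regulators and targets of that response: Atf4, Atf5, Ddit3, Ddit4, Trib3, Asns, Chac1, Sesn2, Ppp1r15a and Vldlr. All 10 were in the table. They were measured by RNA-seq in mammary tumor cells of the MMTV-PyMT mouse, in which the mouse mammary tumor virus promoter drives the polyoma middle T oncogene in mammary epithelium. Per the study's methods the mice were of the FVB/N background, and the labels give WT as the genotype of every library. Tumor cells of both populations were plated in DMEM/F12 with 2% fetal bovine serum, insulin at 10 µg/ml and human EGF at 20 ng/ml, and were sorted 1 day later.

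The 2 populations were metastasis-initiating cells (MICs) and non-MICs. Both were Lin-CD24+, and MICs were CD90+ where non-MICs were CD90-. Lin- means that leukocytes (CD45), endothelial cells (CD31) and erythroid cells were gated out. Each had 3 libraries, numbered 1 to 3. The study counts such replicates as independent experiments or tumors, and the labels do not say which of these a number is, so p-values measure the spread between these libraries. The comparison asks whether the cells that start metastases carry more or less ISR mRNA than the other tumor cells. The MIC libraries held 32458499, 31467281 and 51759769 reads (numbers 1, 2 and 3) and the non-MIC libraries 33069114, 33126717 and 49904738, so both libraries of number 3 were the deepest. Values are reads per gene scaled to the same total in each library, and 1 read was worth between 0.676 and 1.11 units.

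The gate was visible in the transcripts. Thy1, which encodes CD90, was at 1509, 301 and 755 in the MIC libraries and at 16.9, 21.1 and 12.6 in the non-MIC libraries, and this gene chose the cells. Cd24a was at 11309, 19406 and 17276 in MICs and at 14009, 14882 and 18754 in non-MICs. The epithelial keratin Krt18, the most abundant luminal marker over the 6 libraries together, was at 97244 or more in each. Ptprc, which encodes CD45, was at 0 in both libraries of number 1 and at 10.0 at most in the others. The summed immune markers, however, were at 1733 in MIC library 2 and at 956 in non-MIC library 2, and at 258 at most in the other libraries. The summed endothelial markers reached 50.7 at most.

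In the ISR, a family of kinases that sense unfolded protein in the endoplasmic reticulum, amino acid shortage, double-stranded RNA or heme shortage phosphorylates the translation initiation factor eIF2. General translation then slows, while ribosomes reach the coding sequence of Atf4 more often, and the ATF4 protein switches on genes for amino acid supply, redox balance and, with CHOP, cell death. In mammary and other tumors the pathway is known as a response to poor nutrient supply, hypoxia and detachment. Because ATF4 is controlled largely at translation, its mRNA is only one layer of the response, and the mRNAs of its targets are the usual readout.

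Trib3, Asns, Chac1 and Vldlr are each represented by the stretch of their promoter window that holds the C/EBP-ATF composite element, the DNA motif through which ATF4 and its C/EBP partners act on target genes. Each line runs 5′ to 3′ on the strand of the gene, and capitals mark the match to TGATGNAA or to its reverse complement.
Trib3: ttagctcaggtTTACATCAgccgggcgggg
Asns: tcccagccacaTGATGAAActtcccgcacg
Chac1: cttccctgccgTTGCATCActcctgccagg
Vldlr: agcagcaatagTTGCATCAgcgctcctagc
The sequences are RefSeq windows of build GRCm38.p6 that run from 250 bases before to 50 bases after a transcript start. The Trib3 stretch lies at chr2:152344028-152344057 (minus strand), with its match downstream of the RefSeq start, beginning at base 15 of the transcript, and 7 bases upstream of the gene as GENCODE draws it. The Asns stretch at chr6:7693214-7693243 (minus strand) and the Vldlr stretch at chr19:27216809-27216838 (plus strand) lie in noncoding parts of exons in GENCODE, with the match beginning 23 and 200 bases before the RefSeq starts. The Chac1 stretch lies at chr2:119351038-119351067 (plus strand), with the match beginning 193 bases before the RefSeq start. All 10 genes had a window, 12 windows in all, and 4 windows of 4 genes held the motif on either strand, against 3.97% of 32851 windows in the mouse table. The endoplasmic reticulum stress element, searched as CCAAT and CCACG with 9 bases of any kind between them on either strand, was in 0 of the 12 windows and in 0.119% of all. A match is a description of letters, and no match says only that these letters are not in these windows.

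None of the 10 genes was called between MICs and non-MICs, and their values overlapped between the populations in all 10. In the fit of limma to log2(value + 1) without a replicate block, 0 of 10 members passed a Benjamini-Hochberg adjusted p of 0.05, where 0.0% of all 22310 genes did, and 0 members had an unadjusted p under 0.05, where 1.44% of all genes did. The fit without the block also did not call Thy1, the gene that chose the cells, at a log2 fold change of 5.32. With the replicate number as a block, again 0 of 10 passed, against 0.13% of all genes, and 0 members had an unadjusted p under 0.05, against 11.2%. Thy1 was called higher in MICs with the block. edgeR on the recovered reads called 0 of 10 without the block, against 0.0% of all genes, and 0 of 10 with it, against 1.41%. The log2 fold change (MIC against non-MIC) was above 0 for 4 members and below 0 for 6, with a median of -0.09 beside -0.04 over all genes and -0.09 over the 9008 genes at or above the mean of the least abundant member, called genes of like abundance here. The median of the members was -0.05 under quantile normalization and -0.03 in DESeq2, and it was -0.39 without non-MIC library 1 and 0.10 without MIC library 1. All 10 had a limma adjusted p of 1.00 without the block, and exact two-sided permutation tests of 3 against 3 gave p between 0.5 and 1.0, where 0.1 is the smallest the design allows. These permutations ignored the replicate numbers and could not reach 0.05, so they decide nothing. Groups without overlap were found for 6.24% of all genes, with MICs above in 2.69% and below in 3.55%.

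**Figure D1:**
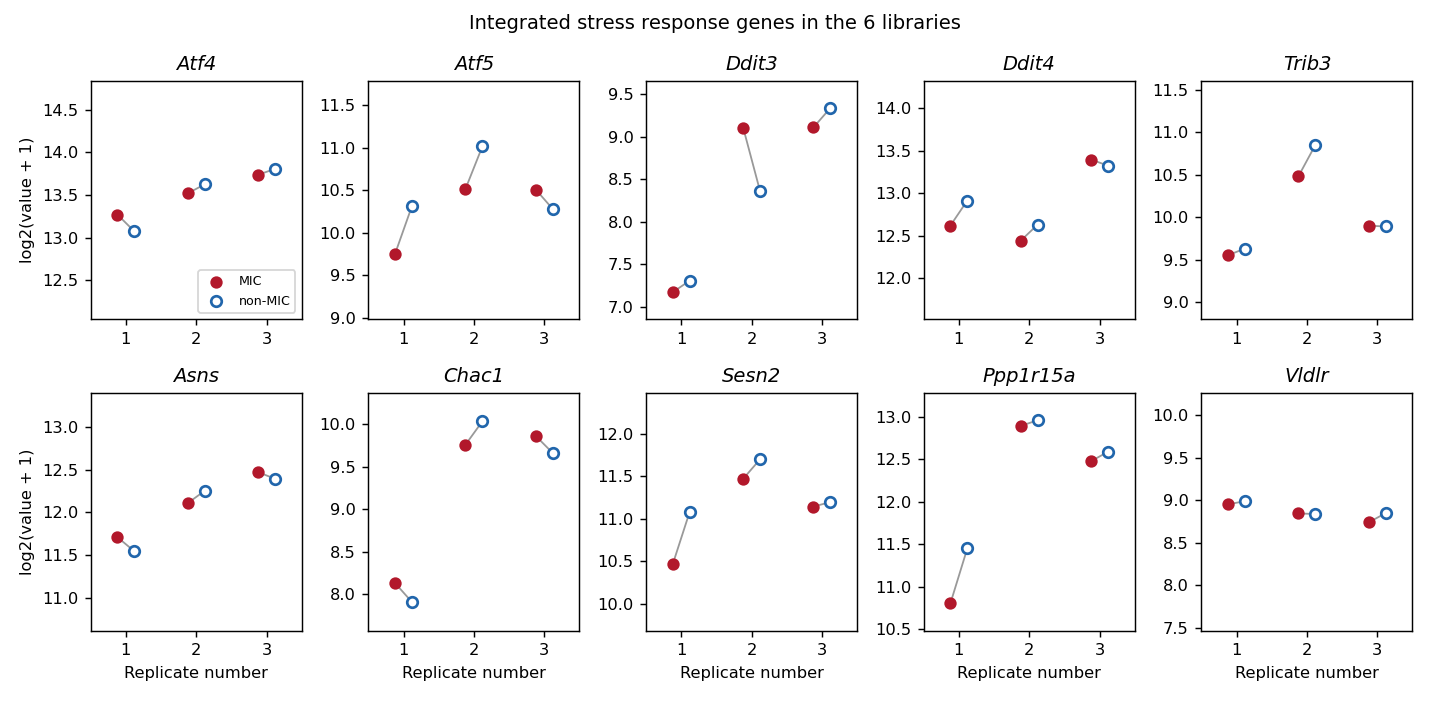
Level of each of the 10 genes as log2(value + 1) on the y axis (the same span in every panel) against replicate number on the x axis, with MIC libraries as filled red points, non-MIC libraries as open blue points and a line joining libraries of the same number. In most panels the joined points lie close together while the numbers lie apart, with both points of number 1 below the other 4 for 7 genes.

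Atf4 (chr15:80255184-80257541, plus strand, GRCm38), the transcription factor at the centre of the response, was the most abundant member by its median per length of exon. Its values were 9872, 11747 and 13661 in MIC libraries 1, 2 and 3 and 8613, 12632 and 14338 in non-MIC libraries 1, 2 and 3. Number 1 was the lowest in both populations, and the MIC library was above its partner in pair 1 and below it in pairs 2 and 3. The log2 fold change was 0.01 with an SE of 0.25 in limma, and with the block its 95% interval ran from -0.36 to 0.38.

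Atf5 (chr7:44812256-44816658, minus strand), a bZIP factor related to ATF4 and likewise controlled at translation, was at 862, 1462 and 1453 in MICs and at 1272, 2067 and 1241 in non-MICs. The MIC library was lower in pairs 1 and 2, by 0.56 and 0.50 on the log2 scale, and higher in pair 3 by 0.23. The log2 fold change was -0.28 (SE 0.31), and its block interval of -0.69 to 0.13 allows a level in MICs between 0.620 and 1.10 times that in non-MICs. Atf5 shares 82 exon bases with Nup62 and 82 with Il4i1 on the opposite strand, and whether the counting used strand is not given.

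Ddit3 (chr10:127290774-127296288, plus strand) encodes CHOP, the factor that turns a prolonged response toward cell death. It was at 143, 552 and 552 in MICs and at 158, 329 and 647 in non-MICs, with 133 reads in its lowest library. Pair 2 alone had the higher value in MICs, by 0.75 on the log2 scale, the largest pair difference among the members, and pairs 1 and 3 had it lower by 0.14 and 0.23. The log2 fold change was 0.13 (SE 0.68; block interval -0.38 to 0.64). Ddit3 shares 68 exon bases with Mars and 13 with Gm4189 on the opposite strand, and 105 with a second Ddit3 entry of the annotation on the same strand that is not in the table, so its values carry the same uncertainty.

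Ppp1r15a (chr7:45522916-45526268, minus strand) encodes GADD34, the phosphatase subunit that reverses eIF2 phosphorylation and so closes the feedback loop. Its values were 1788, 7591 and 5693 in MICs and were 2797, 7949 and 6150.0 in non-MICs. Both libraries of number 1 were far below the other 4, and within each pair MICs were the lower, by 0.65, 0.07 and 0.11 on the log2 scale. The log2 fold change was -0.27 with an SE of 0.59 in limma without the block and of 0.17 with it, where the adjusted p was 0.555.

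Trib3 (chr2:152337422-152344032, minus strand), a pseudokinase that CHOP and ATF4 induce and that in turn restrains ATF4, was at 750.5, 1429 and 955 in MICs and at 793, 1845 and 949 in non-MICs. Number 2 was the highest in both populations. The pair differences were -0.08, -0.37 and 0.01, and the log2 fold change was -0.15 (SE 0.38; block interval -0.52 to 0.22).

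Asns (chr6:7675169-7693254, minus strand), asparagine synthetase and a classic ATF4 target, was at 3347, 4420 and 5687 in MICs and at 2985, 4887 and 5390 in non-MICs. The populations followed each other from number to number, with pair differences of 0.17, -0.14 and 0.08, and the log2 fold change was 0.03 (SE 0.30; block interval -0.32 to 0.38). Chac1 (chr2:119351229-119354381, plus strand), which degrades glutathione and is induced through ATF4, was at 279, 865 and 929 in MICs and at 239, 1047 and 809 in non-MICs. Its libraries of number 1 were again far below the rest in both populations, the pair differences were 0.22, -0.27 and 0.20, and the log2 fold change was 0.05 (SE 0.66; block interval -0.36 to 0.46).

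Ddit4 and Sesn2 encode REDD1 and sestrin 2, stress proteins that dampen mTORC1, the kinase complex that drives growth. Ddit4 (chr10:59949669-59951834, minus strand) was at 6292, 5565 and 10774 in MICs and at 7715, 6342 and 10246.5 in non-MICs, so that within each population number 2 was the lowest and number 3 the highest. Its pair differences were -0.29, -0.19 and 0.07, and its log2 fold change was -0.14 (SE 0.31; block interval -0.50 to 0.22). Sesn2 (chr4:132492032-132510501, minus strand) was at 1413, 2832 and 2259 in MICs and at 2162, 3319.7 and 2342 in non-MICs. As deposited, MICs were the lower in every pair, by 0.61, 0.23 and 0.05. The log2 fold change of -0.30 (SE 0.31) was the lowest of the 10, with a block interval of -0.67 to 0.07 and an adjusted p of 0.513 in limma with the block.

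Vldlr (chr19:27216484-27254231, plus strand), a lipoprotein receptor known as an ATF4 target under endoplasmic reticulum stress, was the steadiest member. Its values were 495, 459 and 427 in MICs and were 508, 457 and 461 in non-MICs, the pair differences were -0.04, 0.01 and -0.11, and the log2 fold change was -0.05 (SE 0.24; block interval -0.45 to 0.36). All 6 libraries lay within a narrow band, and number 1 was the highest, the reverse of most other members.

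The pair differences of the members were close in size to those of genes of like abundance. The median absolute pair difference was 0.18 on the log2 scale over the 10 genes and 0.38 over all genes, which include many with few reads, and it was 0.22 over the 9008 genes of like abundance. The MIC library was the lower for 7 members in pair 1, 8 in pair 2 and 5 in pair 3, where 50.6%, 42.6% and 62.7% of all genes and 58.1%, 56.3% and 64.7% of the genes of like abundance were lower. Rescaling by TMM factors moved the median pair 2 difference of all genes by -0.11, and gave 6, 9 and 4 members lower, where 48.8%, 52.1% and 47.4% of all genes were. Sesn2 and Ppp1r15a were lower in MICs in all 3 pairs, where 18.8% of all genes and 30.5% of the genes of like abundance were. Under TMM 1 member, Ppp1r15a, was, against 16.4% of all genes, and Sesn2 was no longer lower in pair 3. No member was higher in all 3 pairs, where 12.5% of all genes were.

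**Figure D2:**
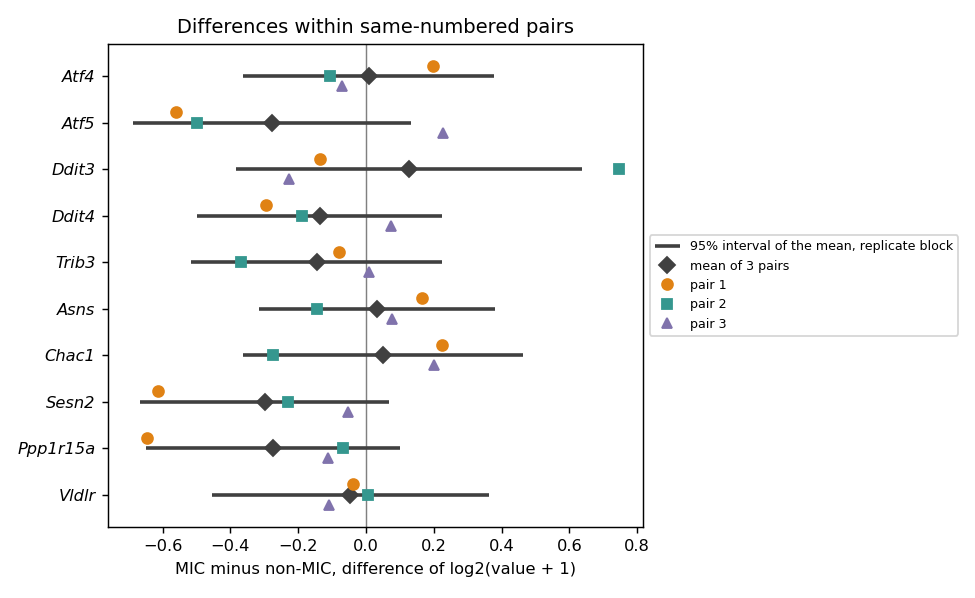
Difference between the MIC and the non-MIC library of the same number in log2(value + 1) on the x axis, for each of the 10 genes on the y axis, with a marker for each pair, a diamond for the mean of the 3 pairs and a bar for its 95% interval in limma with the replicate block. Every bar crosses 0, and only Sesn2 and Ppp1r15a have all 3 markers to the left of it.

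Per kilobase of exon, the members covered a wide range of abundance. The median over the 6 libraries was 5169 units for Atf4 and 4005 for Ddit4, whose ranges overlapped. Ppp1r15a followed at 2016 and Asns at 1701, again with overlapping ranges. Then came Atf5 at 684, Sesn2 at 662, Chac1 at 511, Trib3 at 448 and Ddit3 at 257, where each overlapped the next. Vldlr was the lowest at 45.7, and its range of 42.4 to 50.5 lay below that of every other member. The ranges of neighbours in this order were separate between Ddit4 and Ppp1r15a, between Asns and Atf5, and between Ddit3 and Vldlr.

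Most members differed far more between replicate numbers than between populations. The fold from the lowest to the highest number, taken on the mean of both populations, was 3.96 for Ddit3, 3.67 for Chac1 and 3.47 for Ppp1r15a. It was 2.10 for Trib3, between 1.52 and 1.77 for Ddit4, Sesn2, Asns, Atf5 and Atf4, and 1.13 for Vldlr. On the log2 scale the median range between numbers was 0.82 over the members and 0.91 over all genes. Over the genes of like abundance it was 0.53. Number 1 was the lowest for 8 of 10 members, all but Ddit4 and Vldlr, where it was the lowest for 35.5% of all genes and for 33.6% of the genes at or above the least abundant member. Over the 10 pathway lists read below, number 1 was the lowest for 53 of 103 genes. These include 8 of 9 amino acid transporters, 11 of 13 tRNA synthetase genes and 10 of 13 amino acid and one-carbon synthesis genes. Both libraries of number 1 lay below the other 4 for Atf4, Ddit3, Trib3, Asns, Chac1, Sesn2 and Ppp1r15a, 7 of 10 against 10.7% of all genes. Number 2 was the highest for Atf5, Trib3, Chac1, Sesn2 and Ppp1r15a, and number 3 for Atf4, Ddit3, Ddit4 and Asns.

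An F test of limma over the replicate numbers, with the population kept in the model and chosen after the values were seen, called 7 of 10 members at a Benjamini-Hochberg adjusted p of 0.05, against 28.4% of all genes and 33.3% of the genes at or above the least abundant member. The members that passed were Chac1 (adjusted p 8.1e-05), Ppp1r15a (8.6e-05), Ddit3 (0.000496), Trib3 (0.00461), Asns (0.0190), Ddit4 (0.0201) and Sesn2 (0.0283). Atf5 (0.0769), Atf4 (0.103) and Vldlr (0.819) did not. Sesn2 was no longer called with a pseudocount of 0.1, under quantile normalization, under TMM and in edgeR. The test rests on the libraries of number 3: without MIC library 3 or without non-MIC library 3 it called 0 members and 0 genes, and without any other single library it called between 4 and 6 members. A number stands for an independent experiment or tumor, and differences between tumors, cultures, sorts and library batches cannot be told apart.

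Of the total variation of a gene over the 6 libraries, the replicate number, which has 2 of the 5 degrees of freedom, took a median of 93.2% over the members and of 66.4% over all genes. The population, with 1 degree of freedom, took a median of 2.73% over the members and 9.02% over all genes. The number took 98.2% for Chac1, 96.2% for Asns, 94.5% for Trib3 and 94.3% for Ppp1r15a. It took least for Atf5 (63.4%) and Sesn2 (75.3%), the members with the largest share for the population, at 13.8% and 15.3%.

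**Figure D3:**
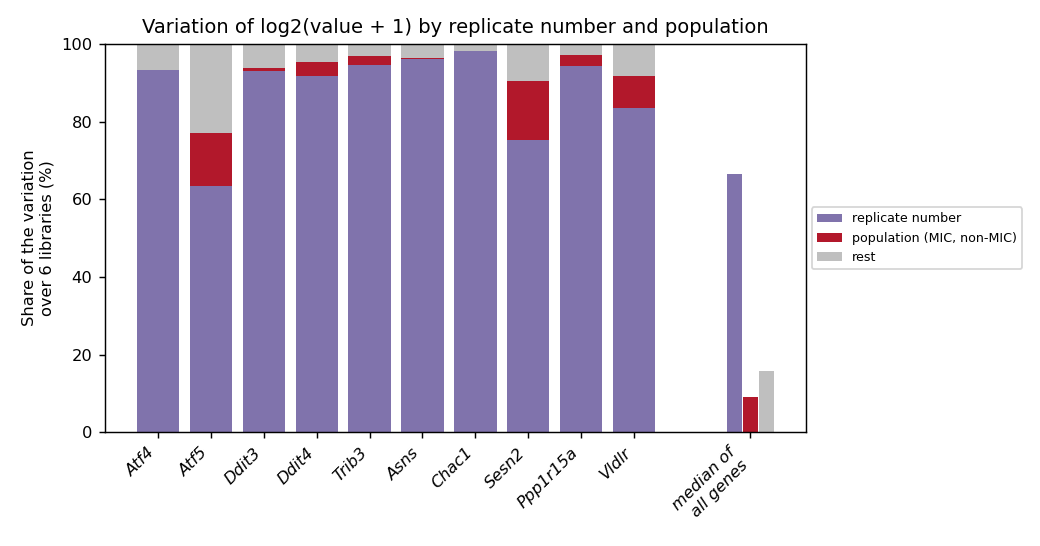
Share in percent of the variation of log2(value + 1) over the 6 libraries (y axis) that goes with replicate number, with population and with neither, as a stacked bar for each of the 10 genes and, at the right, as separate bars for the median over all genes. The share of the number is 63.4% or more in every member, and that of the population is 15.3% at most.

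The members did not all follow 1 profile. Over the 45 pairs of members, the Pearson correlation of log2(value + 1) over the 6 libraries was above 0 for 33 and above 0.8 for 14, with a median of 0.49. These points share libraries, depth and the replicate numbers, and the values are a description. Atf4 and Asns were the closest pair, at 0.99, and Asns and Vldlr the farthest apart, at -0.94. Every correlation with Vldlr was below 0, although Vldlr differed only 1.13-fold between numbers, and a correlation does not measure size. The other values below 0 were those of Ddit4 with Atf5, Trib3 and Sesn2. The mean of the members after each was scaled to mean 0 and SD 1 was -0.98, 0.27 and 0.33 in the MIC libraries and -0.62, 0.59 and 0.41 in the non-MIC libraries. Among 11163 other genes with a mean value of at least 100, those most like this mean over the 6 libraries were Pcyt1b (Pearson correlation 1.00), Mttp (1.00), Golim4 (0.99), Cbfa2t2 (0.99) and Nr1d1 (0.99).

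Markers of epithelial and of other cell types also differed between replicate numbers. The summed basal and myoepithelial markers, of which Acta2 (smooth muscle actin) had the largest sum over libraries through MIC library 1 and Krt17 was above it in the other 5, were at 403907, 23682 and 71222 in MICs and at 140069, 23952 and 46867 in non-MICs, with number 1 the highest in both. Of these 6 markers, 3 were called higher in MICs by limma with the block, where no gene of the table was called without the block or with the block and without the libraries of number 3. Over all 22310 genes, limma with the block called 27 higher. The summed luminal markers were at 589774, 211658 and 448366 in MICs and at 697460, 277193 and 423011 in non-MICs, again highest in number 1, where most members were lowest. The summed fibroblast markers were at 2154, 670 and 2003 in MICs and at 1107, 739 and 585 in non-MICs, with Col1a2 the most abundant over all libraries through those of number 1 and Col1a1 above it in the other 4. All 7 fibroblast markers had a log2 fold change above 0, 4 were higher in MICs in all 3 pairs, and 2, Col1a2 and Dcn, were called higher by edgeR with the block and 0 by limma. Of all 22310 genes, 10229 were above 0, 12.5% were higher in all 3 pairs and 232 were called higher by edgeR with the block. The immune markers summed to 143, 1733 and 258 in MICs and to 142, 956 and 255 in non-MICs, with Lyz2 at 1635 and 834 in the libraries of number 2 and at 142 or less in the others. Of these markers 4 of 6 were at 0 in at least 1 library, and Cd3e, also on the list, was not in the table of genes. The share of the mitochondrially encoded transcripts was 0.663%, 2.28% and 1.60% in MICs and was 1.55%, 1.22% and 2.17% in non-MICs. The part of these differences in the values of the ISR genes was not tested, and in bulk samples fewer cells of a type and less RNA per cell cannot be told apart.

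The rest of the pathway was read from 10 lists of 103 genes in all. None of the 103 was called between MICs and non-MICs by limma with or without the block or by edgeR with the block. At an unadjusted p under 0.05, 2 were higher and 1 lower without the block, against 1.44% of all genes. With the block 6 were higher and 11 lower, where 5.24% of all genes were higher and 5.97% lower, and of the 9008 genes of like abundance 621 were higher and 991 lower. The log2 fold change was above 0 for 41 and below 0 for 62, and over all genes it was above 0 for 10229 and below 0 for 12081. Of the genes of like abundance 3504 were above 0 and 5504 below. Between replicate numbers 45 of the 103 were called (43.7%), against 28.4% of all genes and 33.3% of the genes of like abundance.

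The 4 eIF2 kinases all had a log2 fold change below 0, with a median of -0.22. Eif2ak4 (GCN2, the sensor of amino acid shortage) was at 1126, 1139 and 1436 in MICs and at 1772, 1393 and 1634 in non-MICs, the lower in all 3 pairs, with a log2 fold change of -0.38 (SE 0.21; limma adjusted p with the block 0.438). Eif2ak1 (HRI, the heme sensor) had -0.20, Eif2ak2 (PKR, the sensor of double-stranded RNA) -0.25 and Eif2ak3 (PERK, the sensor in the endoplasmic reticulum) -0.07. Among the 9 subunits of eIF2, of its exchange factor eIF2B and of its phosphatase, 6 were above 0 and 3 below. Eif2s1, the subunit that the kinases phosphorylate, was at 11412, 14370.5 and 8866 in MICs and at 7536, 7105 and 8854 in non-MICs. All 3 MIC libraries were above all 3 non-MIC libraries, by 1.02 on the log2 scale in pair 2 and by less than 0.01 in pair 3, and the adjusted p with the block was 0.418. Eif2s2 was at 9156, 13595 and 8744 in MICs and at 6430, 7952 and 8331 in non-MICs, again without overlap, with a log2 fold change of 0.45 (SE 0.24). All MIC libraries were above all non-MIC libraries for 2.69% of all genes and for 222 of the 9008 genes of like abundance.

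Of the 5 bZIP partners and cofactors, 2 were above 0 and 3 below. Atf3, which ATF4 induces, was at 2043, 11366 and 22499 in MICs and at 3559, 8879 and 24049 in non-MICs, and differed 8.62-fold between numbers. Nupr1, a stress cofactor, was at 1225, 7922 and 8013 in MICs and at 1725, 7805 and 8564 in non-MICs. Both were lowest in number 1 in each population and were called between the numbers by limma (adjusted p 6.4e-06 and 2.1e-06). Cebpb, a partner of ATF4 and CHOP, was at 403, 800 and 337 in MICs and at 809, 1043 and 391 in non-MICs, lower in MICs in all 3 pairs, with a log2 fold change of -0.53 (SE 0.47; adjusted p with the block 0.418). It was also called between the numbers by limma (adjusted p 0.00434), but was lowest in number 3 and highest in number 2. Cebpg had a log2 fold change of 0.11 and Jdp2 of 0.23.

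Among 13 amino acid and one-carbon synthesis genes, 8 were above 0 and 5 below, with a median of 0.02. Psph and Psat1, enzymes of serine synthesis, had log2 fold changes of 0.45 (SE 0.27) and 0.35 (SE 0.36) and were the higher in MICs in all 3 pairs. Of 9 amino acid transporters 3 were above 0 and 6 below, with Slc1a5 at -0.31 and Slc6a9 at -0.21. The 13 tRNA synthetase genes had a median of -0.13, with Vars at -0.50 (SE 0.47) and Aars at -0.23 (SE 0.24). In pair 1, 7 of the 13 were higher in MICs and 6 lower. All 13 were lower in MICs in pair 2, as deposited and under TMM, where 42.6% and 52.1% of all genes were lower. Of the genes of like abundance 56.3% were lower in pair 2 as deposited. In pair 3, 12 of 13 were higher, where 62.7% of all genes were lower. The other 10 targets of ATF4 or CHOP had a median of -0.03, which quantile normalization turned to 0.02. Fgf21 reached 14.5 at most, and Map1lc3b had a log2 fold change of 0.28 (SE 0.39). Gdf15, a stress cytokine named here after its values were seen, was at 287, 2342 and 76.4 in MICs and at 312, 2862 and 71.5 in non-MICs, so that it was far higher in number 2 than in either other number.

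**Figure D4:**
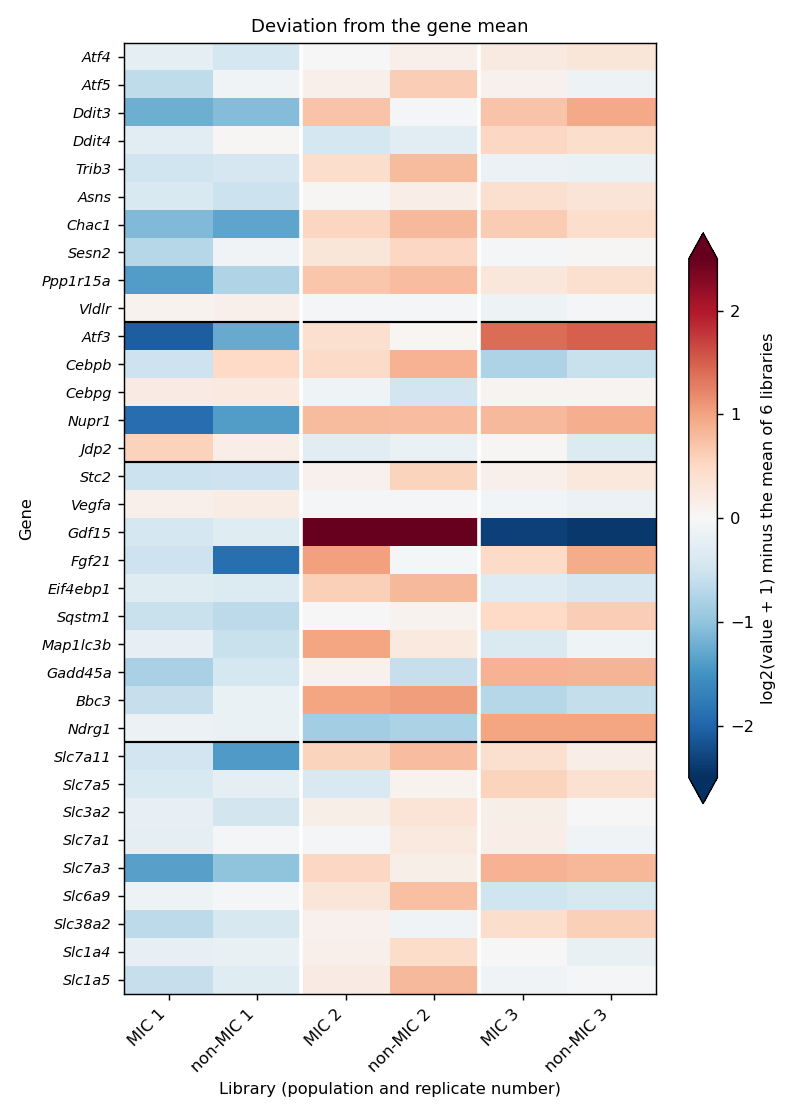
Difference of log2(value + 1) from the mean of the gene over the 6 libraries, as color (blue below, red above, with values beyond the ends of the scale drawn in the end color), for the 10 members, bZIP partners, other targets and amino acid transporters (y axis, separated by black lines) in each library ordered by replicate number (x axis). The 2 columns of number 1 are blue for most members and for Atf3 and Nupr1, and Gdf15 is red in number 2 alone.

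The 19 genes of the ATF6 and IRE1 arms, the other branches of the response to unfolded protein, had a median of 0.13, with 11 above 0 and 8 below, and under quantile normalization a median of 0.04, with 14 above and 5 below. Dnajb9, a chaperone induced through XBP1, was at 949, 2048 and 1052 in MICs and at 613, 955 and 1029 in non-MICs, with a log2 fold change of 0.59 (SE 0.36; adjusted p with the block 0.418). Hspa5, the chaperone BiP, had 0.34 (SE 0.22). Of 8 mitochondrial stress genes 4 were above 0 and 4 below. Yme1l1, a protease of the inner membrane, and Hspe1, the mitochondrial co-chaperonin, had log2 fold changes of 0.61 (SE 0.25) and 0.65 (SE 0.29), with their highest value in MIC library 2.

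The 13 immediate early and dissociation genes, which handling of tissue is known to induce, include the heat shock chaperones Hspa1a and Hspa1b. All 13 had a log2 fold change below 0, with a median of -0.38. They were also all below 0 under TMM (median -0.38) and under quantile normalization (median -0.40). Fos was at 6710, 12729 and 12893 in MICs and at 14161, 16191 and 14659 in non-MICs, with a log2 fold change of -0.54 (SE 0.28). Jun was at 5660.0, 6222 and 6224 in MICs and at 9788, 8686 and 7354 in non-MICs, with a log2 fold change of -0.50 (SE 0.19; limma adjusted p with the block 0.417). For Fos and Jun, 2 of the 13, every MIC library was below every non-MIC library. The same held for 3.55% of all genes and for 491 of the 9008 genes of like abundance. With the block, 6 of the 13 were lower at an unadjusted p under 0.05, and 0 passed the adjusted threshold. At the unadjusted threshold 5.97% of all genes were lower, and 991 of the 9008 genes of like abundance were. In all 3 pairs 8 of 13 were lower in MICs, against 18.8% of all genes and 30.5% of the genes of like abundance, and under TMM 7 were, against 16.4% of all genes. Their part in the values of the ISR genes was not tested.

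**Figure D5:**
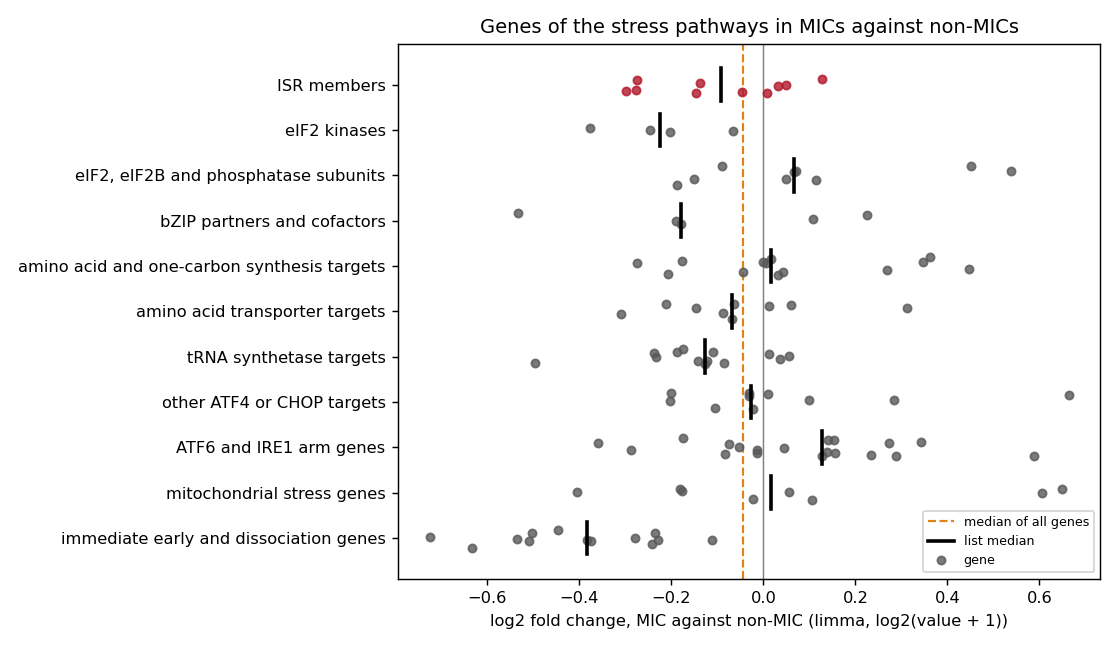
log2 fold change of MIC against non-MIC in limma on log2(value + 1) (x axis) for every gene of the 10 members and of the 10 pathway lists (rows), with a black tick for the median of each list and a dashed line for the median of all genes. The members lie between -0.30 and 0.13, and the immediate early and dissociation genes are the only list of more than 4 genes that lies wholly below 0.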

How the data were processed

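Per the study's methods, the authors made stranded mRNA libraries, aligned and counted the reads and scaled the counts of each library to its total; the submitters' processing notes name STAR and HTSeq, with no versions, and GRCm38 (mm10), while the methods name Bowtie2 and samtools for the quantification. The strand setting of the counting is not given in the sources used here. The deposited values are this scaled signal. Dividing by the value of 1 read gave whole reads, within 0.01, for at least 99.99% of the values in each library, so edgeR 4.0.16 (0 genes called, 315 with the block) and DESeq2 1.42.0 were run on those reads as alternatives.

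Genes were named and placed by GENCODE vM21 (22161 of 22310 identifiers). limma 3.58.1 (R 4.3.3, trend) was fitted to log2(value + 1) over all genes without a block, with Benjamini-Hochberg adjustment at 0.05, and without the block called 0 genes (322 at an unadjusted p under 0.05). A fold change on this scale understates the change of low genes. Both populations share the numbers 1 to 3, and deviations from the group means correlated at 0.57, 0.67 and 0.75 between same-numbered libraries. The block is therefore given beside the fit without it. Between other libraries the correlation was -0.33 on average. Deviations sum to 0 within a group, so this negative value follows from the centring and adds nothing separate. Shares of variation are sums of squares of number and population. Genes named beyond the members were those of each list past a threshold or, where none passed, the 2 with the smallest p, plus all eIF2 kinases and bZIP partners. The members, lists and rules were chosen with earlier results of these data known. The procedures were tested on simulated data. Some marker genes are not reported here.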

Additional observations from a re-analysis of the deposited data

How the results depend on the processing

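No member was called between MICs and non-MICs in any setting tried. Over 12 settings that kept all libraries, 118 of 120 member values kept their direction and their side of the threshold, and the other 2 were Atf4 (-0.0061) and Chac1 (-0.020) in edgeR without the block. The number of genes called, 0 in limma, was 29 with the replicate block, 32 with the replicate block and TMM factors (added after seeing the data), 315 in edgeR with the block, 1 in DESeq2 and 133 in DESeq2 with the block, and with the block it was 11 without replicate 1, 59 without replicate 2 and 0 without replicate 3. The block changed no call of a member. Leaving out 1 library in turn, without the block, moved the median log2 fold change of the members from -0.09 to between -0.39 (without non-MIC library 1) and 0.10 (without MIC library 1). It moved Atf4 between -0.21 and 0.16, Ddit3 between -0.39 and 0.77, Ddit4 between -0.42 and 0.052, Trib3 between -0.40 and 0.22, Asns between -0.23 and 0.23, Chac1 between -0.60 and 0.61, Ppp1r15a between -0.71 and 0.35 and Vldlr between -0.10 and 0.0059. Atf5 lay between -0.41 and -0.026 and Sesn2 between -0.52 and -0.018, both nearest to 0 without MIC library 1. With the block and a pair left out, Atf4 lay between -0.087 and 0.06, Asns between -0.034 and 0.12, Chac1 between -0.037 (-0.026 without replicate 3) and 0.21, and Ddit3 between -0.18 and 0.30. Leaving a library out without the block leaves the populations with unequal numbers. The test between replicate numbers called 6333 genes and 7 members. With a library left out it called between 0 and 6240 genes and between 0 and 6 members, and with all libraries between 4369 (of the genes above the median of the mean values only) and 7044 genes and 6 or 7 members, with Sesn2 the member lost. The lowest count of a member in a library was 133 reads (Ddit3), and among the listed genes depth limits Fgf21, with 1 read in non-MIC library 1.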
